A study of Mus musculus with 40 samples.

Results

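Transcripts of 35 genes of the endoplasmic reticulum (ER), coding for its chaperones, its quality control machinery and its stress response, were followed in liver and kidney of mice given phenobarbital. The genes were taken by symbol from the platform annotation, and for a gene with several probe sets the one with the highest mean over the 40 arrays was used. All 35 had a probe set, out of 18193 genes with one on the array. They comprise 7 chaperones and cofactors, 6 lectins and disulphide isomerases, 2 luminal stress responders, 7 genes of ER-associated degradation, 5 sensors and transcription factors, 3 targets of ATF4 and CHOP, 3 translocon genes and 2 genes of ER membrane shape.

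The arrays (Affymetrix Mouse430_2) measured total RNA from 20 male B6C3F1/Crl mice, the offspring of C57BL/6 males and C3H/He females, a cross with no engineered allele. The animals were 29 to 32 days old on arrival and acclimatised for 5 days. Phenobarbital (PB), a sedative barbiturate and the standard activator of the constitutive androstane receptor in hepatocytes, was given to 10 of them at 0.05% (w/v) in the drinking water, with free access, for 28 days, and the other 10 were untreated controls. Liver and kidney were taken from every animal, which gave 4 groups of 10 arrays: control liver, PB liver, control kidney and PB kidney. The comparison asks how the drug changes a tissue in which it promotes tumours and a tissue in which it does not.

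The ER is where secreted and membrane proteins enter the secretory pathway and fold. Chaperones such as BiP, the product of Hspa5, and the disulphide isomerases hold and oxidise nascent chains, and chains that fail to fold are moved back to the cytosol and degraded. When unfolded chains accumulate, the membrane sensors IRE1, ATF6 and PERK raise the transcription of these genes through XBP1, ATF6 and ATF4, and ATF4 in turn drives CHOP, the product of Ddit3. Hepatocytes secrete most plasma proteins, and phenobarbital is a classical inducer of smooth ER membrane in them.

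The deposited MAS5 signal is a linear intensity scaled to the same trimmed mean on every array, and its median over all probe sets was at most 37.2 on the 40 arrays. Cyp2b10, the P450 gene that marks phenobarbital exposure of hepatocytes, had signals of 15.7 to 49.5 in control livers and 9730.5 to 12774 in PB livers, and did not exceed 56.3 in any kidney. Hepatocyte markers (7 of 7 measured) were higher in liver and kidney tubule markers (8 of 8) higher in kidney. A pair of arrays stood apart by transcripts of pancreatic acinar cells, which belong to neither tissue. The summed signal of 6 such markers was 4481 in control kidney 1, against at most 121.0 in the other control kidneys, and 938.0 in PB liver 20, against at most 226.5 in the other PB livers. Acinar cells are rich in ER chaperones, so calls of the ER genes followed here are also given without these arrays where they change. Results for the further gene lists, the cell markers and the shares of all genes are given with all arrays only. In tissue RNA, fewer cells of a type and less RNA per cell cannot be told apart.

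Promoter sequence was examined because the ER stress response acts through known elements. Of the 35 genes, 30 had at least 1 window in the RefSeq promoter table (build GRCm38.p6), which covers 250 bases before to 50 bases after a start site. Atf6, Manf, Hyou1, Sec61a1 and Derl1 were not matched. Windows were searched on both strands for the ER stress response element (ERSE), written as CCAAT, any 9 bases, then CCACG, which binds NF-Y together with ATF6 or XBP1. It was present in 9 of the 30 genes, against 37 of all 27025 genes in the table (0.137%). This element and those below are known from stress response genes, and the 35 genes were chosen for that response. The shares are therefore a description of the set and no independent result. The 9 genes were Hspa5, Hsp90b1, Calr, Canx, Pdia6, Creld2, Dnajc3, Derl3 and Syvn1. The stretches below show the element in genes whose values are described further on. Each is read 5′ to 3′ along the gene's strand and ends before the start site, and capitals mark the element.
Hspa5 (chr2:34772005-34772063, plus strand): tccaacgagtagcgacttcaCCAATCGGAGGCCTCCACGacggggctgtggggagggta
Hsp90b1 (chr10:86705513-86705676, minus strand): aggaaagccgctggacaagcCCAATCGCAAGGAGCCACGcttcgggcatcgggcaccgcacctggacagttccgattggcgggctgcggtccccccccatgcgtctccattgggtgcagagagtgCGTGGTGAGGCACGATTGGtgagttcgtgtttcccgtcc
Calr (chr8:84847055-84847113, minus strand): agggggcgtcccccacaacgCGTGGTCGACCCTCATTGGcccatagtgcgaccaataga
Pdia6 (chr12:17266471-17266529, plus strand): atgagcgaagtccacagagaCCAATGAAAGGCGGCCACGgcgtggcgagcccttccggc
Creld2 (chr15:88819500-88819558, plus strand): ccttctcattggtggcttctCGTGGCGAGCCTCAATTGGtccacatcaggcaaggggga
Syvn1 (chr19:6046512-6046570, plus strand): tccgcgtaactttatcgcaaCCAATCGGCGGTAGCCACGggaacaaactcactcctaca

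Hspa5 held 1 copy ending 47 bases before the start site, and Hsp90b1 (coding for GRP94) held 2 copies on opposite strands. In Calr and Creld2 the element lies on the opposite strand and therefore reads as CGTGG, 9 bases, ATTGG. Other elements were rarer or less particular to these genes. The ERSE-II, written as ATTGG, any 1 base, then CCACG, was found in Herpud1 and Dnajb11, 2 of 30 genes, against 12 of 27025 in the table (0.0444%). Its CCACG is also the last part of the ERSE. The XBP1 element UPRE (TGACGTGG), whose CGTGG is the reverse complement of CCACG, was in 0 of 30 genes and in 193 of all genes (0.714%). The core of the amino acid response element (TGATGNAA), to which ATF4 binds with C/EBP partners, was in 4 genes (Chac1, Asns, Herpud1 and, after the start site, Trib3), or 13.3%, against 1219 genes of the table (4.51%). The 2 stretches below show it in Chac1, the member with the largest fall in liver, and in Herpud1, where it lies upstream of the ERSE-II. In both it is on the opposite strand, and capitals mark the elements as they read along the gene's strand.
Chac1 (chr2:119351029-119351076, plus strand): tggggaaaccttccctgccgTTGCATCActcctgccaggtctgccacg
Herpud1 (chr8:94386297-94386407, plus strand): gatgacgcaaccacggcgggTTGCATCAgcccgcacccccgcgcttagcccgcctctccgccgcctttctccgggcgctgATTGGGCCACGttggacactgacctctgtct
A match of letters is a description of the window and no evidence that a factor was bound in these tissues.

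Liver held more of these transcripts than kidney. In control mice 30 of the 35 genes were higher in liver and 3 were lower at an adjusted p under 0.05 (limma, Benjamini-Hochberg over all probe sets tested). Of all 10920 genes tested 80.7% were called, 36.5% higher and 44.2% lower. With each array centred on its median, calls over all probe sets went from 7411 higher and 9154 lower to 9219 and 7467, while those among the 35 genes went to 31 and 3. With quantile normalization, calls over all probe sets were 8287 higher and 8361 lower. Pdia3 then lost its call (log2 difference 0.08, adjusted p = 0.0729 by limma), and Canx was called lower in liver (-0.38). The sizes given below hold for the deposited scaling. The median log2 difference of the 35 genes, liver minus kidney, was 1.05, against -0.08 over all genes tested. In 26 genes every control liver lay above every control kidney and in 3 every control liver lay below, where groups without overlap made up 48.1% of all genes. In PB mice 32 genes were higher and 3 lower, with a median of 1.20. Of all 11029 genes 82.8% were called there, 36.2% higher and 46.6% lower. In 27 genes every PB liver lay above and in 2 every PB liver lay below every PB kidney, beside 50.6% of all genes without overlap. The signal of 24 genes was higher and that of 2 lower in all 20 livers than in all 20 kidneys, beside 15.7% and 23.3% of 11193 genes.

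The 5 genes whose probe sets gave the highest signals were all among them (signals of different probe sets are not a ranking of transcripts). Hspa5, the HSP70 of the ER lumen, had a lowest, median and highest signal of 11993, 13773 and 16048 in control livers and of 5073, 6289 and 7091 in control kidneys. Calr, the soluble lectin chaperone calreticulin, gave 8520, 9415 and 10739 in control livers and 4470.0, 5625 and 6280.3 in control kidneys. P4hb, the disulphide isomerase PDI, gave 8907, 9397 and 10551 in livers and 4193, 4654 and 5135 in kidneys. The ranges of the tissues were separate for each of these, with log2 differences of 1.18 ± 0.07 (SE, n = 10 per group) for Hspa5, 0.79 ± 0.06 for Calr and 1.04 ± 0.04 for P4hb. Hsp90b1 gave 6547, 8706 and 9178 in control livers and 3462, 4109 and 4928 in control kidneys. Xbp1, the transcription factor that IRE1 activates by splicing, gave 7076, 9902 and 12282 in livers and 3536, 4355 and 5489 in kidneys. These 2 were again without overlap, at 1.05 ± 0.07 and 1.17 ± 0.09.

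Several larger differences lay outside these 5 genes. Ern1, which codes for the sensor IRE1, was 6.06-fold higher in control liver than in control kidney by the ratio of group means, with 811 to 1700 in livers and 176 to 233.5 in kidneys. Sdf2l1, a cofactor of the BiP complex, was 3.86-fold higher, and Syvn1, the ubiquitin ligase HRD1 of ER-associated degradation, was 3.80-fold higher. Creld2 and Manf, 2 small luminal proteins that are secreted under ER stress, were 2.98-fold and 2.96-fold higher. Derl2, a derlin of the degradation channel, was 2.64-fold higher, and the translocon subunits Sec61a1 and Sec61b were 2.38-fold and 2.14-fold higher. Trib3, a pseudokinase induced by ATF4 and CHOP, was called higher in liver, but its kidney signals of 2.8 to 29.5 lay under the level of 50 used as filter, so the size of its difference is not given.

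Exceptions were few. Ckap4, which codes for the sheet-forming membrane protein CLIMP-63, was higher in kidney, with 34.9 to 68.6 in control livers and 112.5 to 165.0 in control kidneys. Rtn4, a reticulon that bends ER tubules, was also higher in kidney, with 1150 to 1944 in livers and 2384 to 2896 in kidneys. In both genes the tissues did not overlap in either treatment group. Derl1 was lower in liver by its leading probe set (-0.46 ± 0.06 on the log2 scale), but its other 3 probe sets gave 0.72, 0.01 and 0.59. Canx, the membrane-bound lectin calnexin, did not pass the test in control mice (0.01 ± 0.05, adjusted p = 0.805 by limma), and neither did Ddit3 (-0.25 ± 0.13, adjusted p = 0.0858).

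**Figure D1:**
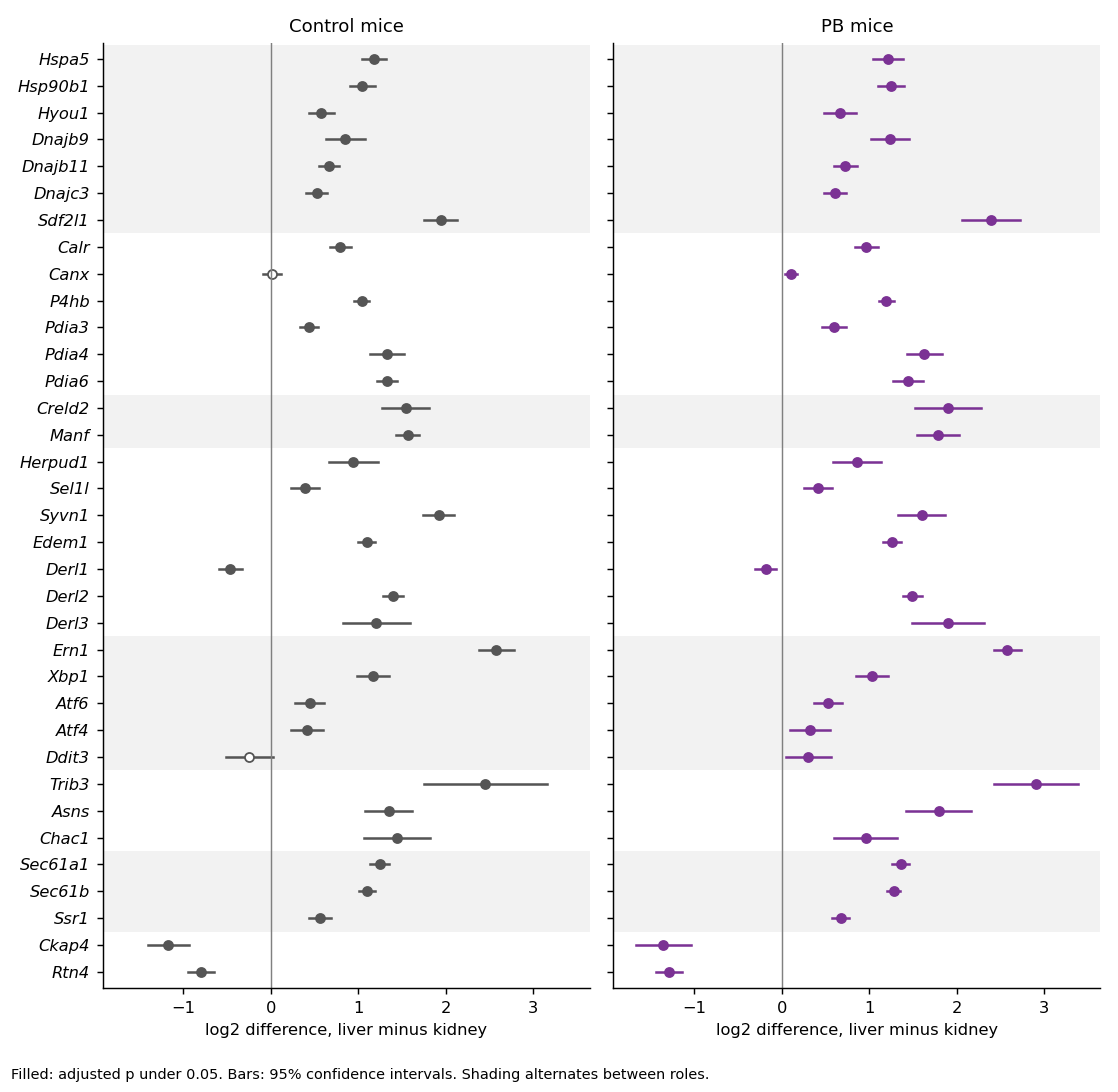
Log2 difference in signal, liver minus kidney, for each of the 35 genes in control mice (left) and PB mice (right), 10 animals per group. Points are limma estimates with 95% confidence intervals, filled where the adjusted p was under 0.05, and shading alternates between roles. Most genes lie right of 0, with Ern1 at 2.58 in both panels (the place of Trib3 rests on kidney signals under the filter), and Ckap4, Rtn4 and Derl1 lie left of it in both panels.

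In the plot of tissue differences Ern1 lies at 2.58 in both treatment groups, and Rtn4 lies further left in PB mice (-1.29) than in control mice (-0.80). Without control kidney 1, 30 genes were still called higher and 3 lower in control mice, and without PB liver 20, 32 and 3 in PB mice.

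Phenobarbital changed few of these genes in liver. At an adjusted p under 0.05, 3 genes rose (Ddit3, Trib3 and Derl1) and 3 fell (Chac1, Rtn4 and Pdia6), or 17.1% of the 35 tested. Of all 9920 genes tested 14.3% were called, 6.43% higher and 7.83% lower. The share among these genes is thus near that of all genes. The median log2 fold change of the 35 genes was 0.03, against -0.02 over all genes. The 9 genes with an ERSE had a median of 0.03 (-0.27 to 0.12), with 1 called lower, and the 21 with a window but no ERSE a median of -0.00, with 2 called in each direction. In none of the 35 did the 10 PB livers lie wholly outside the range of the 10 control livers, where 1.76% of all genes showed such a separation.

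None of the 7 chaperones and cofactors passed the test. Hspa5 gave 10656, 12667 and 15259 in PB livers (lowest, median and highest) against 11993, 13773 and 16048 in controls, and 9 of 10 PB livers lay under the control median. Its log2 fold change was -0.11 (95% confidence interval -0.24 to 0.01, adjusted p = 0.245 by limma). Hsp90b1 gave 7749, 8543 and 11420 in PB livers, with a change of 0.09 (-0.06 to 0.24). Dnajb9, a BiP cochaperone, had the largest estimate of the 7 with 0.30 ± 0.14 and an adjusted p of 0.171, and Hyou1, Dnajb11, Dnajc3 and Sdf2l1 lay between -0.12 and 0.12. For Hspa5 and Hsp90b1 the intervals exclude a change of more than 0.25 in either direction.

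Among the lectins and isomerases, Pdia6 fell. This protein disulphide isomerase, also called P5, gave 2021, 2361 and 2706 in control livers and 1782, 2029 and 2548 in PB livers. The ranges overlapped, and 5 of 10 PB livers lay below all controls. It fell by 0.22 on the log2 scale (± 0.07 SE, adjusted p = 0.0418). Without PB liver 20 its adjusted p was 0.077. A second, dim probe set with group means of 44.2 and 62.0 gave 0.50 and did not pass (adjusted p = 0.101). Calr gave 7816, 9850 and 10851 in PB livers and P4hb 8732, 9925 and 10874, both spanning nearly the control range, with changes of 0.03 ± 0.05 and 0.06 ± 0.04. Canx, Pdia3 and Pdia4 did not pass either, at 0.03, -0.04 and 0.18, although all 10 PB livers lay above the control median of Pdia4. Nor did the luminal responders Creld2 (0.03 ± 0.18) and Manf (0.06 ± 0.08) pass.

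In ER-associated degradation, Derl1 was called higher by its leading probe set. Its signals were 1039, 1250 and 1558 in control livers and 1324, 1522 and 1918 in PB livers, a change of 0.30 ± 0.08 (adjusted p = 0.0161), and all 10 PB livers lay above the control median. Its other 3 probe sets gave -0.07, 0.05 and -0.02 with adjusted p-values of 0.370, 0.581 and 0.924, and the leading one is of a type designed to match several transcripts. Herpud1, Sel1l, Syvn1, Edem1, Derl2 and Derl3 did not pass, and their changes ran from -0.27 (Syvn1) to 0.11 (Derl3).

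The transcription factors and their targets moved in different directions. Ddit3, coding for CHOP, gave 70.6, 114 and 162 in control livers and 123, 191 and 301 in PB livers. Of the 10 PB livers 8 lay above all controls. The rise was 0.80 ± 0.15 on the log2 scale, or 1.74-fold (adjusted p = 0.000719), the smallest p-value of the 35 genes. Trib3 gave 52.7, 81.2 and 142.0 in control livers and 71.8, 135 and 252 in PB livers, with 5 of 10 PB livers above all controls. It rose by 0.78 ± 0.22, or 1.72-fold (adjusted p = 0.0215), and its second probe set by 1.08 (adjusted p = 0.00217). With all 40 arrays in 1 fit the adjusted p of the first was 0.0628.

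Chac1 went the other way. This gene, a target of ATF4 and CHOP that codes for a glutathione-degrading enzyme, gave 88.4, 136 and 248 in control livers and 44.6, 75.4 and 133 in PB livers. Every PB liver lay under the control median and 6 of 10 lay below all controls. It fell by 0.91 on the log2 scale (± 0.22 SE, adjusted p = 0.00703). Asns, coding for asparagine synthetase and a further ATF4 target, did not pass the test (0.04 ± 0.18), with a coefficient of variation of 42.1% among PB livers. Atf4 itself gave 717 to 1204 in control livers and 745 to 1283 in PB livers, a change of -0.00 with an interval of -0.21 to 0.21.

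The remaining sensors did not pass at the threshold. Xbp1 gave 6185, 8061 and 10187 in PB livers against 7076, 9902 and 12282 in controls, with 9 of 10 PB livers under the control median. Its change was -0.28 ± 0.09 with an adjusted p of 0.0523, and its second probe set gave -0.52 with 0.0115. Atf6 was at 0.19 ± 0.07 (adjusted p = 0.0854) and Ern1 at -0.03 ± 0.10. The array reports the amount of these transcripts, so the splicing of Xbp1 and the cleavage of ATF6, by which the factors are activated, were not measured.

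Of the translocon and membrane genes, Rtn4 fell. Its signals were 1150, 1621 and 1944 in control livers and 889, 1098 and 1437.5 in PB livers, all 10 of them under the control median and 6 below all controls. It fell by 0.49 on the log2 scale (± 0.09 SE, adjusted p = 0.000988), to 0.714 of the control level. A second of its 5 probe sets fell by 0.38 (adjusted p = 0.00321 by limma), and the remaining ones are not given here. Sec61a1, Sec61b and Ssr1 were at 0.08, 0.10 and 0.11 and did not pass, although all 10 PB livers lay above the control median of Sec61a1 and of Sec61b. Ckap4 was at -0.19 ± 0.17.

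**Figure D2:**
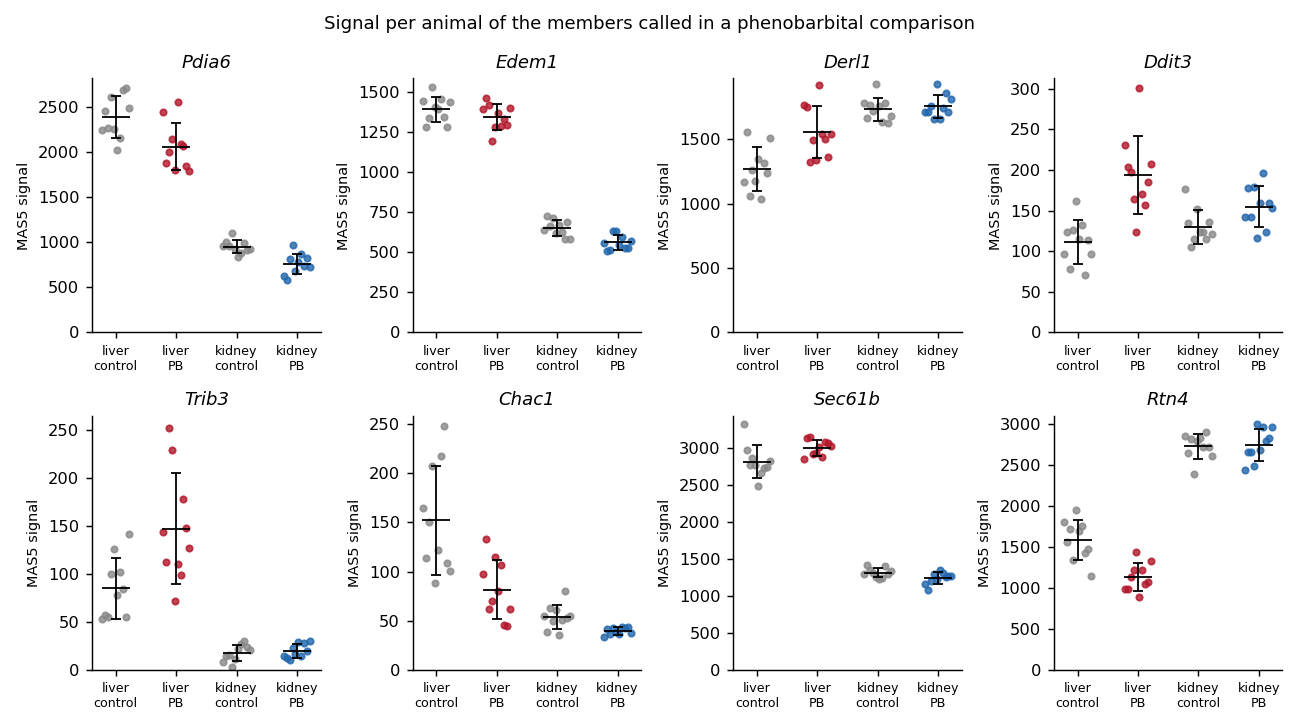
MAS5 signal (linear axis from 0) of the 8 genes called in a phenobarbital comparison, with 1 point per animal and bars for the mean and SD of 10 animals. Ddit3 and Trib3 are shifted upward and Chac1, Pdia6 and Rtn4 downward in PB livers, with overlapping ranges in every gene, while the kidney groups of Rtn4 and Derl1 lie on one level.

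In kidney no gene rose and 2 fell at an adjusted p under 0.05, or 5.88% of the 34 genes tested (Trib3 was under the filter). Of all 10048 genes tested 3.75% were called, 2.16% higher and 1.59% lower. Of the 34 genes 26 had a negative log2 fold change, beside 47% of all genes, with a median of -0.10 against 0.01 over all genes tested. Control kidney 1, with its acinar transcripts, was the highest control kidney in 8 of the 35 genes and the lowest in 0. On average the 35 genes lay 0.04 above the group mean there, on the log2 scale, and 0.11 above it in control kidney 8. The part of control kidney 1 in the count of negative estimates was not tested. The 9 genes with an ERSE had a median of -0.14 and the other 20 tested with a window one of -0.10, with 1 called lower in each set. At an unadjusted p under 0.05, 12 genes were lower and 1, Ddit3, was higher, beside 8.34% and 11.1% of all genes. Chac1, counted among the 26 and the 12, passed the filter only through its control mean of 53.9, with a PB mean of 39.5. As in liver, no gene separated the groups completely, where 0.239% of all genes did.

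Pdia6 was lower in kidney as in liver. It gave 840.0, 938 and 1105 in control kidneys and 582.6, 760.5 and 962.5 in PB kidneys, 8 of them below all controls. The fall was by 0.33 on the log2 scale (± 0.07 SE, adjusted p = 0.0125). Edem1, a mannosidase-like protein that directs misfolded glycoproteins to degradation, gave 585.3, 649.9 and 726 in control kidneys and 509.6, 552 and 636.0 in PB kidneys. Every PB kidney lay under the control median and 7 lay below all controls. It fell by 0.22 (± 0.05 SE, adjusted p = 0.0229), while its second probe set gave -0.06 (adjusted p = 0.609). Both genes were called as well without control kidney 1. Derl1 gave 0.02 ± 0.04 by its leading probe set and fell by 0.19 by the second (adjusted p = 0.0196).

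Other folding genes had negative estimates in kidney that did not pass. Derl3 was at -0.58 ± 0.20 (adjusted p = 0.103), Sdf2l1 at -0.35 ± 0.13 (0.158), Creld2 at -0.32 ± 0.13 (0.174), Pdia3 at -0.20 ± 0.07 (0.0921) and Dnajb11 at -0.18 ± 0.06 (0.0793). Hspa5 gave 4386, 5226 and 6921 in PB kidneys, with an estimate of -0.15 and an interval of -0.33 to 0.03. Calr gave 4394, 4783 and 6046, P4hb 3951, 4303 and 5001, Hsp90b1 3210 to 4294 and Xbp1 3115 to 4496 in PB kidneys, all within or overlapping the control range. Chac1 (-0.42 ± 0.12, adjusted p = 0.0556) and Asns (-0.41 ± 0.12, 0.0614) were near the threshold. Ddit3 gave 105, 124 and 177 in control kidneys and 116, 156 and 196 in PB kidneys, an estimate of 0.25 ± 0.10 (adjusted p = 0.173).

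**Figure D3:**
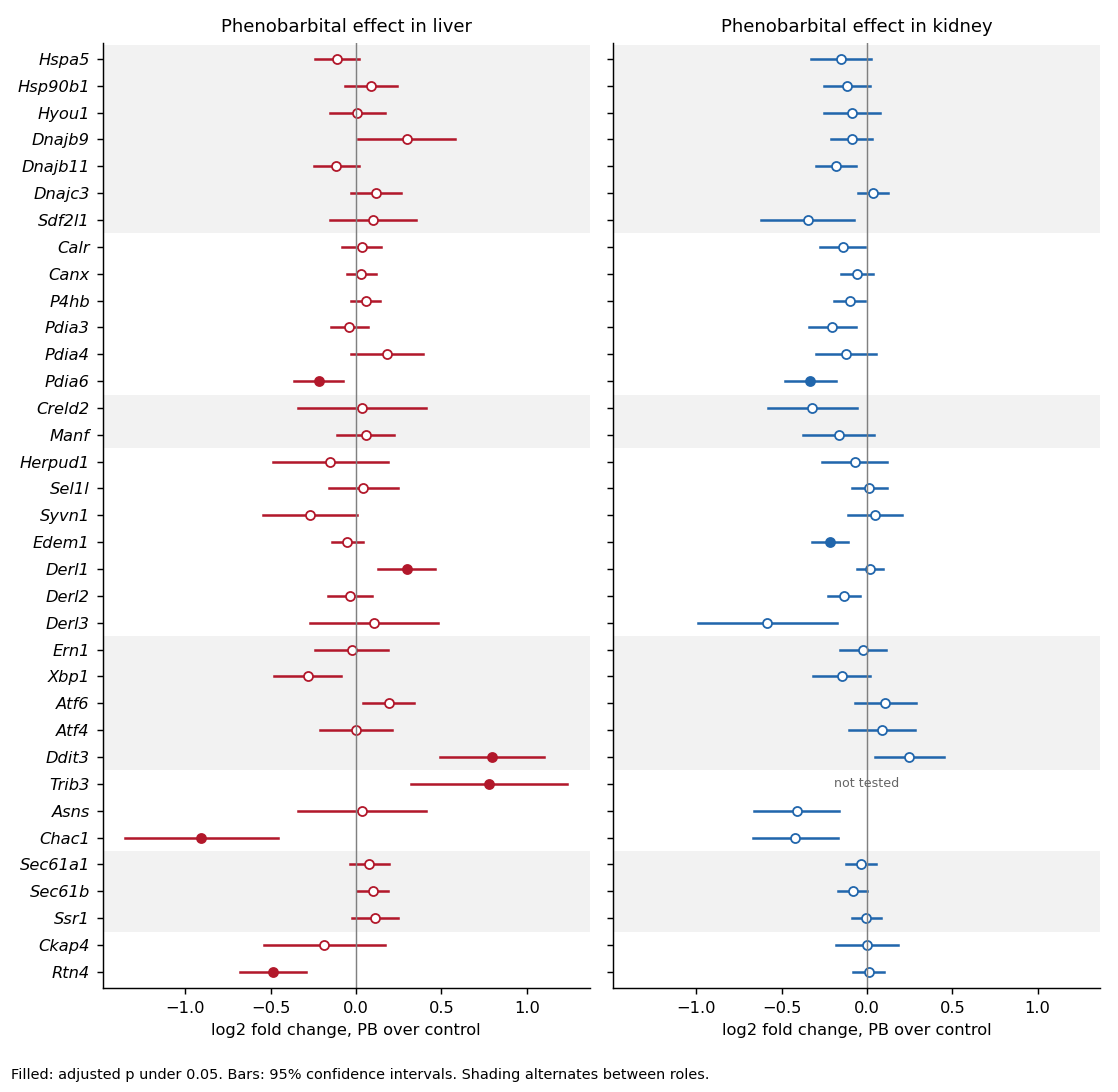
Log2 fold change of PB over control for each of the 35 genes in liver (left) and kidney (right), 10 animals per group, on a shared axis. Points are limma estimates with 95% confidence intervals, filled where the adjusted p was under 0.05. In liver the called genes are Ddit3, Trib3, Derl1, Pdia6, Chac1 and Rtn4, and in kidney Pdia6 and Edem1, with most kidney estimates left of 0.

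The plot of the phenobarbital effects shows wide intervals for Chac1, Trib3, Derl3, Asns and Creld2 and narrow ones for Canx, P4hb and Sec61b. A fit of all 40 arrays tested whether liver and kidney responded differently. This difference was called for 2 of the 35 genes (5.71%), beside 7.66% of all 11193 genes (3.56% higher and 4.09% lower). For Rtn4 the effect in liver minus that in kidney was -0.50 ± 0.10 (adjusted p = 0.00189), with an estimate in kidney of 0.01 ± 0.04. For Sec61b it was 0.18 ± 0.06 (adjusted p = 0.0444), from estimates of 0.10 in liver and -0.08 in kidney that did not pass in either tissue alone. Without control kidney 1 and PB liver 20 the Sec61b difference remained 0.18 with an adjusted p of 0.0629. With the animal, from which both tissues came, as a fixed block Sec61b did not pass (adjusted p = 0.059), and with it as a random block it did. The differences of Ddit3 (0.55 ± 0.18, adjusted p = 0.0639), Derl1 (0.28 ± 0.09, 0.0507) and Chac1 (-0.49 ± 0.26, 0.298) did not pass, and neither did that of Pdia6 (0.12 ± 0.10, 0.591). With the animal as a block Ddit3 passed (0.0306 as fixed and 0.0498 as random), and Derl1 passed with the random block (0.042).

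Further genes of the same pathways were counted from lists. Of 25 further ATF4 and integrated stress response targets tested in liver, 8 fell and 1 rose, or 36.0% called beside 14.3% of all genes, and the median of the list was -0.14. Tars, the threonyl-tRNA synthetase, was 1405 ± 154 in control livers and 921 ± 149 in PB livers (mean ± SD, n = 10), with 8 of 10 PB livers below all controls, and fell by 0.62 on the log2 scale (± 0.09 SE, adjusted p = 2.51e-05). Ppp1r15a, the phosphatase subunit GADD34 that ends the block on translation, fell by 0.54 (± 0.12, adjusted p = 0.00309). Cars, the cysteinyl-tRNA synthetase, fell by 0.44 (± 0.08, adjusted p = 0.00113). Shmt2, a mitochondrial enzyme of serine metabolism, rose by 0.27. In liver, therefore, Ddit3 and Trib3 rose while Chac1 and these 8 genes fell, and in kidney none of the 26 targets tested passed, beside 3.75% of all genes. Of 29 targets the difference between tissues was called for 4, or 13.8% beside 7.66% of all genes, namely Tars (-0.55), Psph (-0.54), Cebpg (-0.49) and Shmt2 (0.29).

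**Figure D4:**
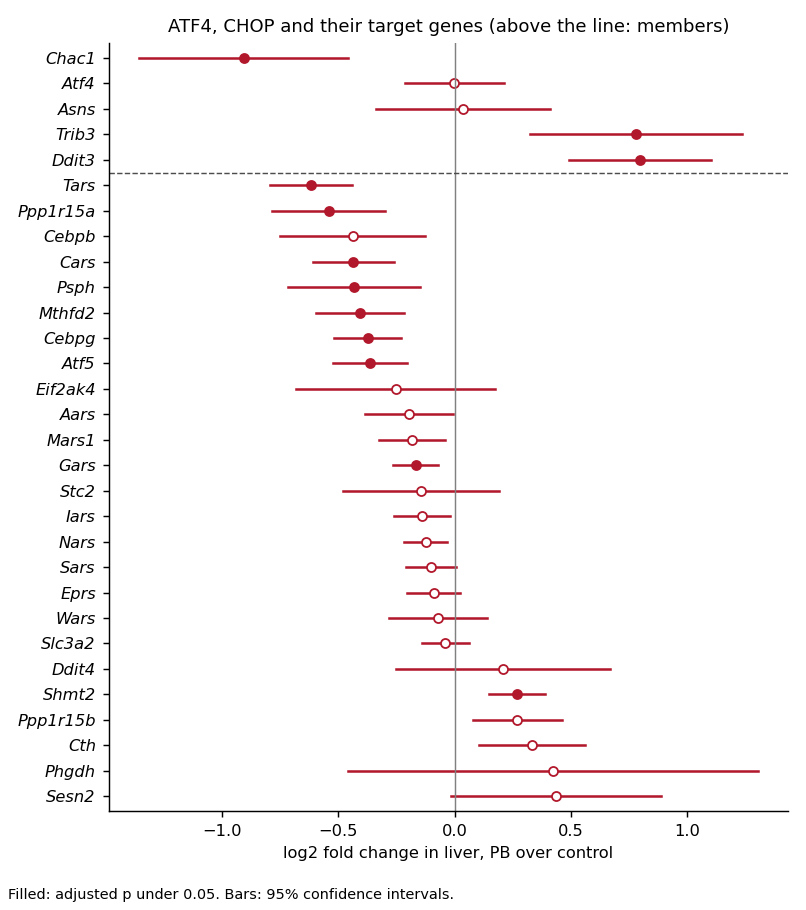
Log2 fold change in liver, PB over control, for Atf4, Ddit3 and the 3 member targets (above the dashed line) and for the 25 further targets tested (below it), 10 animals per group. Points are limma estimates with 95% confidence intervals, filled where the adjusted p was under 0.05. Ddit3 and Trib3 lie near 0.8, Chac1 near -0.9, and 19 of the 25 further targets lie left of 0.

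The plot of the stress response targets places Atf4 at 0 between genes on both sides. Other lists were mixed. Beside the 14.3% of all genes called in liver, 21.9% of the further folding factors were called, 8.0% of the degradation genes, 13.8% of the translocation genes, 7.14% of the sensors and 46.2% of the ER-shaping genes. Of 32 further folding factors tested in liver, 2 rose and 5 fell. Dnajc1, a J-domain partner of BiP, fell by 0.39, Sdf2 by 0.26 with all 10 PB livers below all controls, and Txndc5, a disulphide isomerase, rose by 0.26. Of 25 further degradation genes, Stt3b rose by 0.16 and Ube2j1 fell by 0.23. Of 29 further translocation and glycosylation genes, Stt3a (0.30), Ost4 (0.19) and Spcs3 (0.13) rose and Sec63 fell by 0.20. Of 14 further sensors and stress effectors, Map3k5, the kinase ASK1, fell by 0.54. Of 13 further ER-shaping genes, Reep6, Atl3 and Rtn3 rose (0.33, 0.28 and 0.21) and Reep5, Rrbp1 and Reep3 fell by 0.33, 0.31 and 0.24, and Rtn3 thus moved opposite to Rtn4. The medians of these 5 lists lay between -0.05 and 0.02. In kidney, Fkbp9 rose by 0.17 and Tmx1 and Sil1 fell by 0.25 and 0.20 among the folding factors, Sec11a fell by 0.30 among the translocation genes, and none passed in the other lists, where 3.75% of all genes were called.

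The spread between animals of a group was near that of other genes. The median coefficient of variation of the members with a mean of at least 50 was 13.6% in control livers, 14.3% in PB livers, 9.36% in control kidneys and 12.6% in PB kidneys, beside 15.3%, 13.7%, 10.7% and 10.9% over all genes at that level. Within a group of 10 animals the Pearson correlation between pairs of members had a median of 0.100 in control livers, 0.172 in PB livers, 0.132 in control kidneys and 0.271 in PB kidneys, where the median over all pairs of genes lay between 0.00250 and 0.00850. The pairs share their arrays and animals, and these values are given as a description. Hspa5 in PB kidneys had a median of 0.60 with the other members, and Rtn4 in PB livers of -0.42.

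PB liver 16 had the highest signal of the 10 PB livers in 15 of the 35 genes, among them Hspa5, Hsp90b1, Pdia6, Creld2, Syvn1, Derl3 and Dnajc3, 7 of the 9 genes with an ERSE. Its 15 folding and luminal genes lay on average 0.34 above the group mean on the log2 scale, where the other PB livers lay between -0.16 and 0.12. Creld2 was 5791 in that liver against at most 3497 in the other PB livers. Its kidney lay at 0.06. Among PB kidneys, animal 14 was highest in 13 genes and animal 17 lay above the group mean in 32, both with these 15 genes 0.25 above that mean, and control kidney 4 was highest in 10. Without PB liver 16, Ddit3, Trib3 and Derl1 were still called higher in liver, and Chac1, Rtn4, Pdia6 and also Syvn1 (-0.36, adjusted p = 0.0327) lower.

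**Figure D5:**
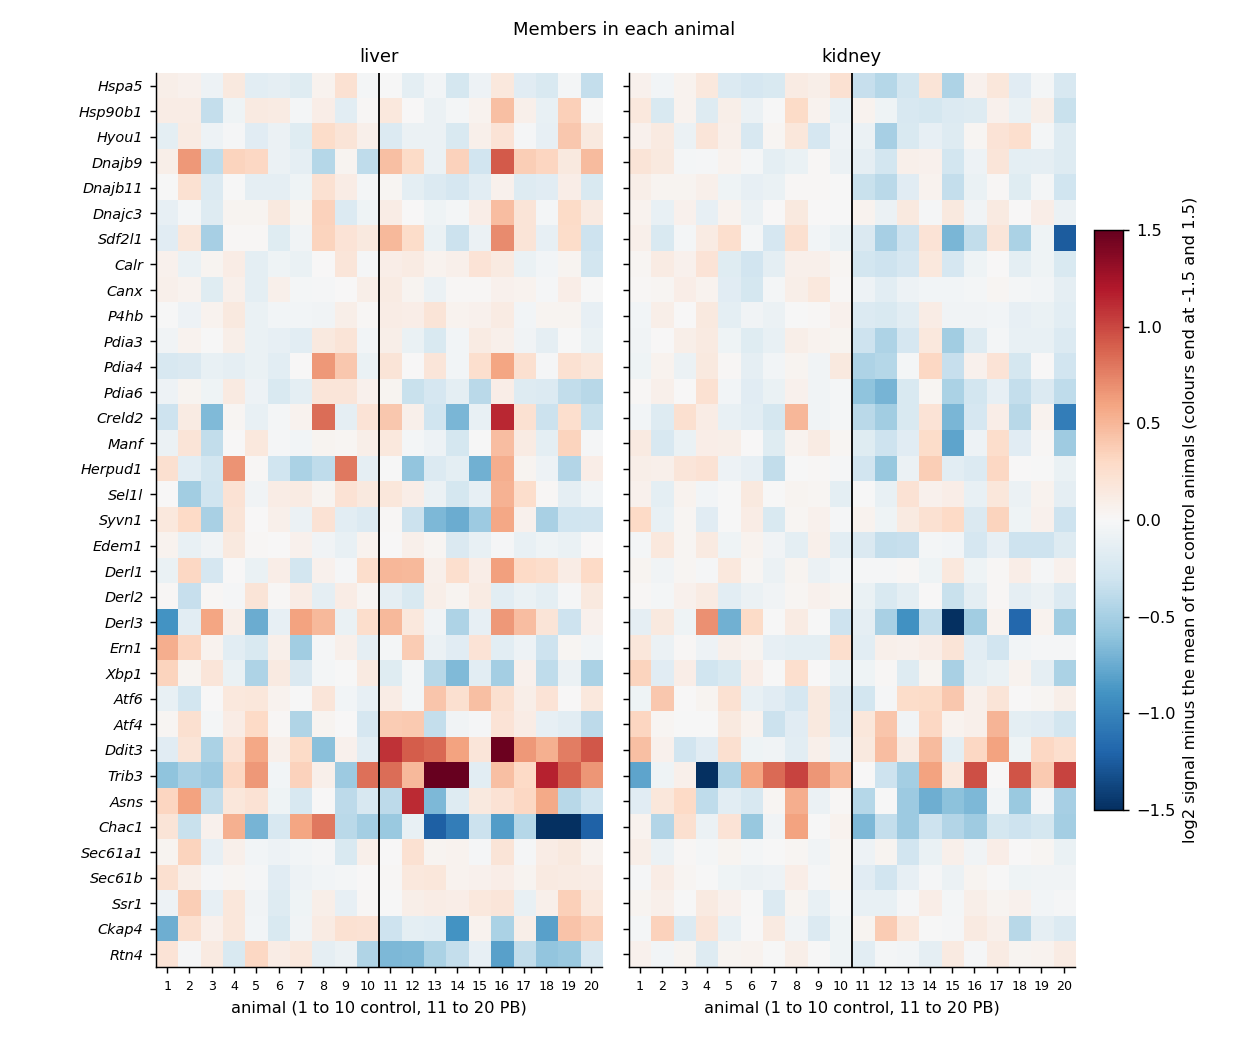
Each gene (row) in each animal (column) as log2 signal minus the mean of the 10 control animals of the tissue, for liver (left) and kidney (right). Columns 1 to 10 are control and 11 to 20 are PB animals, and colours end at -1.5 and 1.5. The rows of Ddit3 and Trib3 are mostly red and those of Chac1 and Rtn4 mostly blue in PB livers, and the column of PB liver 16 is red over the folding genes.

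Other transcripts differed between PB and control animals. For the lists that follow, the share of all genes called was 14.3% in liver and 3.75% in kidney. Of 13 clock genes tested in liver 4 were higher and 3 lower in PB animals (53.8%), and of 14 in kidney 5 were higher and 2 lower (50%). Dbp, a clock output factor, was 161 ± 134 in control livers and 853 ± 818 in PB livers, and 428 ± 223 and 1014 ± 354 in kidneys. The time of day of sampling is not in the labels, and its part was not tested. Of 11 fasting and insulin response genes in liver 4 were lower (36.4%), among them Igfbp1 (2857 ± 2170 in controls and 603 ± 591 in PB livers). In kidney the summed signal of 4 measured fat cell markers ranged from 7.5 to 238 in controls and from 75.2 to 2041 in PB animals, and Adipoq, Cidea and Ucp1 were called higher. In liver 4 of 7 stellate cell and fibroblast markers tested were lower (57.1%), with sums of 2869 to 3636 in controls and 2400.2 to 3348 in PB animals. Of 5 plasma cell markers tested in liver Ighm was higher (20%), with sums of 1808 to 3895 and 2702 to 4397. Of 3 in kidney Jchain was lower (33.3%), with 329 to 745 and 287 to 565. Single markers of macrophages (C1qa, of 7, or 14.3%, the share of all genes) and of endothelium (Stab2, of 4, or 25%) were lower in PB livers. Plasma cells are rich in ER chaperones. The part of these transcripts, and of the cells they mark, in the results above was not tested.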

How the data were processed

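Liver and kidney RNA of 20 mice was measured on 40 arrays. The authors deposited MAS5 intensity values for 45037 probe sets, on a linear scale and with every array brought by them to a common trimmed mean. GCOS and MAS5 are named in the submitters' processing notes, and versions are not given in the sources used here. Animals were not pooled, and their number, 10 per group, limits the precision. Groups and animals come from the sample labels.

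Gene names came from the platform annotation and were brought up to date by Entrez number with a RefSeq table (GRCm38.p6). Of the probe sets 34945 had 1 gene symbol, 932 several and 9160 none, and 34741 matched that table. Genes with no probe set there were not analysed here. Of the 91 probe sets of the members 36, among them 13 of the 35 used, are of types that can take up related transcripts.

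A floor of 1 was applied before log2. A mean signal of 50 or more in either compared group was required, and probe sets that passed were tested with limma (lmFit, eBayes with a trend), two-sided, with Benjamini-Hochberg adjustment over all probe sets tested and a threshold of 0.05, the tissues separately and the difference of effects as an interaction over all arrays. Percentages of all genes use 1 probe set per gene. Alternatives were the filter, the floor or offset, quantile normalization, centring, robust eBayes, the methods' t-test and Student's t on linear signal, a joint fit, the label number as covariate, other probe sets and the animal as block. Leaving out control kidney 1, PB liver 20 or PB liver 16 was chosen after seeing the data. The fit was tested on simulated data.

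The members, lists and motifs were chosen with earlier results of these data known. Every member is named, and those called by phenobarbital and the 5 with the highest mean signal are described in full, and of other lists up to 3 called genes per tissue with the largest changes are named; further called genes were named after their values were seen. By their donor number, each liver is paired with the kidney of the same animal. Deviations from the group means of such pairs had a median r of 0.0437 (-0.0367 to 0.0876, 21866 probe sets), and those of unpaired animals one of -0.00263. R 4.3.3, limma 3.58.1, Python, NumPy and matplotlib were used.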

Additional observations from a re-analysis of the deposited data

Results flagged for a closer look

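Single animals far from the rest of their group of 10 were found in 7 of 140 gene and group combinations, where chance gives about 1 in 20, or 7. PB liver 16 accounted for 4 of them as the highest animal: Creld2 at 5791 (next highest 3497), Dnajb9 at 5979 (next 4366), Syvn1 at 2947 (next 2068) and Pdia4 at 1175 (next 927). Creld2 was also far above the rest in control liver 8, at 4747.5 (next 3047), and Sec61a1 in control liver 2, at 3049 (next 2567). Derl1 was highest in control kidney 5, at 1927 (next 1783).

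The phenobarbital effect differed between the tissues in 2 genes by the interaction test. In Rtn4 the effect in liver minus that in kidney was -0.50 on the log2 scale (adjusted p = 0.00189 by limma), with a fall in liver and an estimate near 0 in kidney. In Sec61b it was 0.18 (adjusted p = 0.0444), with estimates of opposite sign that did not pass within either tissue.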

How the results depend on the processing

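Under the alternatives, 112 of 126 counts of called genes stayed within 1.5 times the value given. With the second probe set of each gene, 1 gene was called higher in liver (23 tested), 1 lower in kidney (19 tested), 19 higher in liver than kidney in control mice (22 tested) and 21 in PB mice (23 tested), where fewer genes had such a probe set. For the difference between tissues the count of higher genes, 1 as given, was 2 with a filter at 100, an offset of 16, median centring or the second probe set, 3 with signals under 50 set to 50 (then 2 lower) or the animal as a random block, and 0 with no filter, with quantile normalization or without PB liver 20 and control kidney 1. The cause was not tested.

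Of the values of single genes, 2013 kept their side of the threshold, and those called in both fits also kept their direction. A call was lost in 12 and gained in 19 with the direction kept, and 10 reversed direction with a call in either fit. For genes called in neither fit the direction was not compared. With the second probe set Pdia6 was at 0.50 and Derl1 at -0.074 in liver, Derl1 at -0.19 in kidney, and between tissues Canx at -0.37 and Derl1 at 0.72 in control mice and -0.24 and 0.84 in PB mice. Quantile normalization put Canx between tissues at -0.38 (control) and -0.35 (PB), and median centring put Derl1 at 0.023 in PB mice. With quantile normalization Pdia3 between tissues in control mice was at 0.081 and lost its call (adjusted p = 0.0729 by limma). Xbp1 in liver passed with a filter at 100 (adjusted p = 0.0422), quantile normalization (0.0359), all 40 arrays in 1 fit (0.0275) or its second probe set, and Pdia6 in liver failed with no filter (0.0819), median centring (0.0625) or the methods' t-test (0.0582). Trib3 in liver failed with all 40 arrays in 1 fit (0.0628).

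With the animal as a fixed replicate block, Sec61b no longer passed (adjusted p = 0.059), Ddit3 did for the difference between tissues (0.0306) and between tissues in control mice (0.0479), and no other member's call changed. Between tissues the median of all probe sets was -0.09 in control mice and 0.09 after median centring, and calls of all probe sets went from 7411 higher and 9154 lower to 9219 and 7467. Over all probe sets in kidney, 345 higher and 282 lower became 176 and 159 with no filter and 109 and 91 with all 40 arrays in 1 fit. Low signals limit Trib3, Chac1 and Ckap4.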
